A study of Mus musculus with 4 samples.

Results

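The MiT/TFE family of basic helix-loop-helix leucine zipper transcription factors has 4 members in the mouse, *Tfeb*, *Tfe3*, *Mitf* and *Tfec*, and all 4 were found by symbol among the 32285 genes of the deposited matrices. They were taken as the family of *Tfeb*, the gene deleted in the study, at a time when earlier results of these data were known. The proteins bind DNA as homodimers or as heterodimers with each other, at E-box elements with the core CACGTG, and an extended form of that element lies in front of many genes for lysosomal enzymes, the vacuolar proton pump and autophagy. When nutrients are plentiful, mTORC1 phosphorylates TFEB, TFE3 and MITF at the lysosome with the help of the Rag GTPases and the factors stay in the cytoplasm. MITF is best known from melanocytes and TFEC from macrophages. In the proximal tubule, which takes up and degrades filtered protein, the lysosome carries a heavy load.

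Single-cell RNA libraries (10x Genomics) had been made from renal cortex of males, a single library per genotype and age. The control mice carried *Tfeb* fl/fl, a floxed *Tfeb* gene, without Cre. The *Tfeb* fl/fl KAP mice, called KAP from here on, had in addition a Cre recombinase driven by the promoter of kidney androgen-regulated protein (*Kap*). Young mice were 6 weeks and aged mice 24 months old, and each library held cortex pooled from 2 or 3 mice. Values for the 4 libraries are given throughout in the order young control, young KAP, aged control and aged KAP.

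The design sets limits on what the counts of *Tfeb* can show. The *Kap* promoter is androgen inducible, so the deletion was studied in males and in those proximal tubule cells that use the promoter. The libraries count unique molecular identifiers (UMIs) at the 3′ ends of transcripts, and the 3′ end of *Tfeb* may lie outside the deleted part. A *Tfeb* UMI in a KAP cell may therefore come from a recombined gene, and *Tfeb* counts are no full check of the deletion. Each condition had 1 library of pooled mice, so no spread between mice could be measured, and a ratio of a library to another carries an exact interval that covers counting error only.

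After filtering, 30191 cells remained, 5704 to 10045 per library, with a median of 11810 to 14739 UMIs per cell, and 10 to 23 barcodes were shared by a pair of libraries. Cells were grouped into 37 clusters without use of the 4 members, and 13 classes with at least 20 cells in every library were named after their marker genes. Of the 7 markers of the S3 segment, the last stretch of the proximal tubule, the S3-like class expressed *Slc22a30*, *Slc7a13*, *Atp11a* and *Slc6a18*, whereas *Cyp7b1*, *Slc22a19* and *Bcat1* were each found in at most 5.17% of its cells. A cluster of 47 cells within it had all 7. The S3-like class held 1738, 1438, 1471 and 1281 cells and the S1/S2-like class, the earlier proximal tubule, 1881, 1761, 1201 and 1066 cells.

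By the GENCODE annotation of GRCm38, *Tfeb* spans chr17:47737030-47792419 on the plus strand, *Tfe3* chrX:7762560-7775202 (plus), *Mitf* chr6:97807052-98021349 (plus) and *Tfec* chr6:16833373-16898441 (minus). No other annotated gene overlaps *Tfeb*, *Tfe3* or *Tfec*. The *Mitf* locus contains the processed pseudogene *Gm15531* on the opposite strand. Levels are counts per 1000000 UMIs (CPM), with the UMIs of all cells that a class has in a library added up. A UMI stands for the 3′ end of a transcript and was not divided by length, and the efficiency of capture may differ between genes, so comparisons of level between members are comparisons of captured 3′ ends.

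Each member had its own distribution over the cortex. By the median over the 4 libraries *Tfec* was highest in the proximal tubule, *Mitf* in the thick ascending limb, *Tfe3* in myeloid cells and *Tfeb* in the intercalated cells of the collecting system. A test of each class against the mean of the other 12 (edgeR quasi-likelihood test with the library as a block, Benjamini-Hochberg adjustment over all genes and classes) called 38 of 52 combinations of member and class, 18 higher and 20 lower. Over all genes 55.8% of the combinations were called, 30.2% higher and 25.6% lower, so differences between classes were common. The classes rest on the expression of other genes of the same cells. For each gene the p-values use a spread taken over the 4 libraries and all classes together. They do not measure how well the libraries agree within the class tested.

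**Figure D1:**
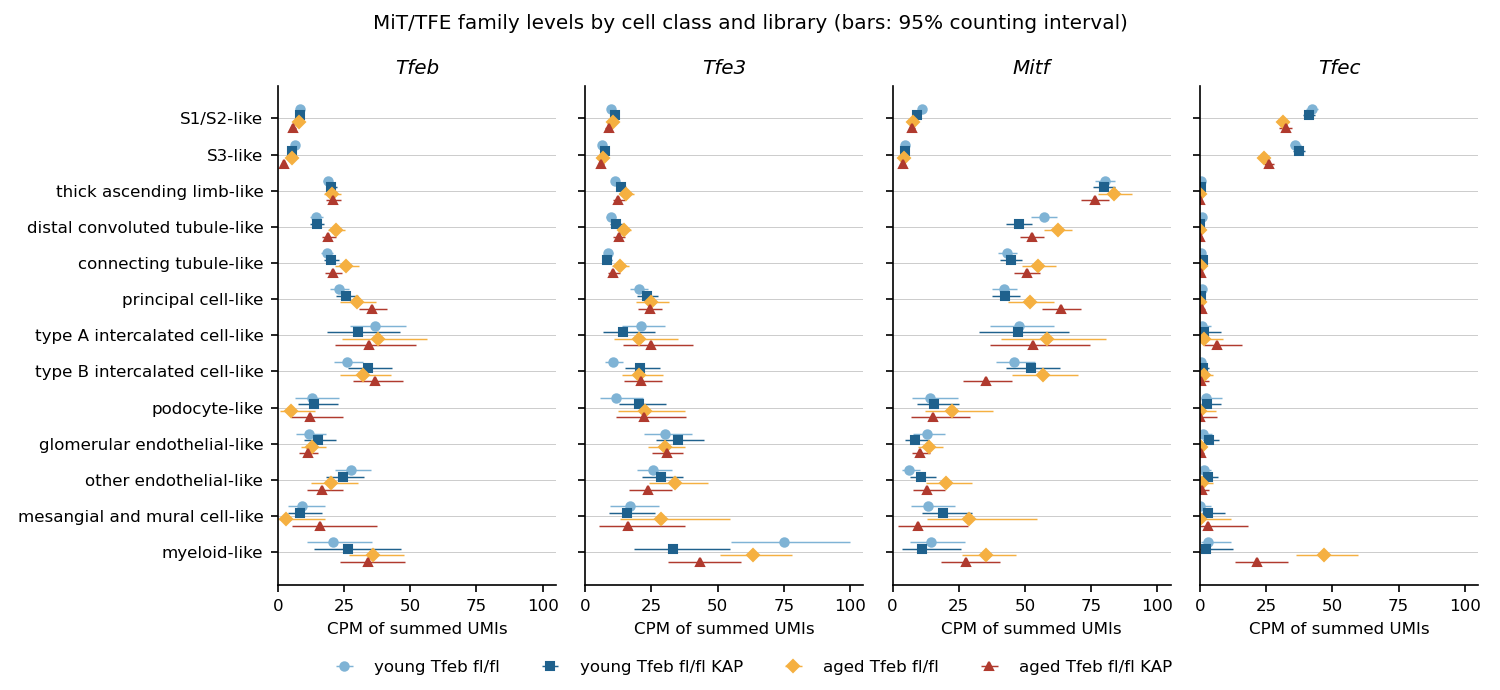
CPM of *Tfeb*, *Tfe3*, *Mitf* and *Tfec* (horizontal axes) in 13 cell classes (rows), with a point for each of the 4 libraries and bars for the 95% counting interval. *Tfec* lies between 24.2 and 42.2 CPM in both proximal classes and at or below 6.26 CPM in all other classes but myeloid-like cells, while *Mitf* lies between 76.3 and 83.7 CPM in thick ascending limb-like cells.

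*Tfec* was counted at 36.0, 37.5, 24.2 and 26.1 CPM in S3-like cells and at 42.2, 41.3, 31.4 and 32.4 CPM in S1/S2-like cells. Over the 6 classes of the thick ascending limb, distal convoluted tubule, connecting tubule and collecting duct combined it was at 0.607, 0.503, 0.226 and 0.332 CPM, so every proximal value lay far above every distal value. In the class test *Tfec* was higher in S1/S2-like cells by a log2 difference of 5.08 (SE 0.19, edgeR adjusted p = 2.92e-26), in S3-like cells by 4.95 (SE 0.19, adjusted p = 8.79e-26) and in myeloid-like cells by 4.10 (SE 0.42, adjusted p = 1.50e-11). Both proximal ranges overlapped. Myeloid-like cells were uneven, at 3.20, 2.22, 46.9 and 21.7 CPM, with the high levels in the aged libraries only. A *Tfec* UMI was found in 49.0, 47.1, 41.3 and 44.5% of S3-like cells, against 0.590, 0.288, 0 and 0% of thick ascending limb-like cells. The median depth was 17782 to 24601 UMIs in the former and 10917 to 14847 in the latter. With every cell thinned to 2000 UMIs the shares were at least 7.94% in the young and 5.37 and 5.85% in the aged libraries, against 0.347, 0.144, 0 and 0%. In the aged libraries the thick ascending limb-like class had no *Tfec* UMI at all, which at a count of 3 allows up to 0.391 CPM in aged control and 0.289 CPM in aged KAP mice.

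Free RNA from lysed proximal cells can carry *Tfec* into other droplets, and *Kap*, an abundant proximal message, was used as a rough gauge of it. *Kap* stood at 74465, 69847, 57633 and 73687 CPM in S3-like cells and at 90.5, 0, 1.82 and 0 CPM in thick ascending limb-like cells. At the proximal ratio of *Tfec* to *Kap*, these amounts of *Kap* would bring at most 0.0767 CPM of *Tfec* into that class. The authors had corrected the deposited counts for background, so these are amounts left after that correction. It may have lowered *Kap* and *Tfec* by different amounts, so the gauge sets no bound on carried *Tfec*. Type A intercalated cell-like cells of aged KAP mice, for example, had *Kap* at 0 and *Tfec* at 6.26 CPM.

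Of the other classes *Tfec* was called lower in the thick ascending limb-like, distal convoluted tubule-like, principal cell-like and connecting tubule-like classes. The last of these calls, a log2 difference of -1.62 (edgeR adjusted p = 0.00736), became -1.20 (adjusted p = 0.091) without the young control library and -1.42 (adjusted p = 0.0529) without the aged KAP library. The genes whose mean log2(CPM + 1) over the 4 libraries followed *Tfec* most closely across the 13 classes, of 13229 genes compared, were *Haao* (Pearson r = 0.982) and *Kmo* (0.977), both enzymes of tryptophan degradation, *Gria3* (0.967), *St8sia1* (0.966) and *Gm15655* (0.965). These points share libraries and depth and are a description.

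*Mitf* was the most frequently counted member in the distal nephron. In thick ascending limb-like cells, which reabsorb salt through the transporter encoded by *Slc12a1*, it was counted at 80.2, 79.8, 83.7 and 76.3 CPM, and the lowest of these lay above the highest value of any other class in any library. The log2 difference from the other classes was 2.00 (SE 0.093, edgeR adjusted p = 5.40e-23). The 5 classes that followed, distal convoluted tubule-like (median 54.8 CPM), type A intercalated cell-like (50.5), type B intercalated cell-like (49.2), connecting tubule-like (47.6) and principal cell-like (47.2), overlapped with their neighbours in that order, and all 5 were called higher. S3-like cells were at the other end, with 4.88, 4.85, 4.18 and 3.80 CPM and a log2 difference of -1.98 (SE 0.13, adjusted p = 1.33e-17). S1/S2-like cells came next, at 7.38 to 11.3 CPM, and their range did not overlap with that of S3-like cells. *Mitf* was also called lower in podocyte-like, mesangial and mural cell-like and both endothelial classes, of which the mesangial and mural call turned to a log2 difference of 0.063 (adjusted p = 0.934) when doublets were kept and the podocyte call was lost (-0.40, adjusted p = 0.172). Among the genes most like it across classes were *Supt3* (r = 0.962), *Nipsnap2* (0.951), *Epcam* (0.949), an epithelial adhesion molecule, and *Rgs11* (0.943).

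The class test differences of *Tfe3* spanned less than those of *Mitf* and *Tfec*, but not less than those of *Tfeb*. Medians of *Tfe3* ran from 53.4 CPM in myeloid-like cells (range 33.2 to 75.2) through 30.5 in glomerular endothelial-like cells to 6.52 in S3-like cells (range 6.06 to 7.46). The myeloid range overlapped with the next class, and the log2 difference in myeloid-like cells was 1.90 (SE 0.14, edgeR adjusted p = 4.34e-16). Both endothelial classes were called higher as well, though the call in other endothelial-like cells was lost at Leiden resolution 2.0 (0.36, adjusted p = 0.0624) and without integration of the libraries (0.37, adjusted p = 0.134). S3-like cells had the lowest level, with no overlap with the next class, connecting tubule-like cells at 8.31 to 13.1 CPM, and a log2 difference of -0.85 (SE 0.10, adjusted p = 1.59e-09). The lower calls in thick ascending limb-like (log2 difference -0.32) and distal convoluted tubule-like cells (-0.40) rested on single libraries. Without young control mice the first had an adjusted p of 0.154 and the second of 0.0651, and without young KAP mice the first had 0.0732.

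*Tfeb* was highest in type A intercalated cell-like cells, the acid-secreting cells of the collecting duct, with 36.6, 30.1, 37.9 and 34.4 CPM, and the type B class was close behind at 26.3 to 36.8 CPM. The log2 differences were 0.98 (SE 0.20, edgeR adjusted p = 4.09e-05) and 0.96 (SE 0.15, adjusted p = 6.22e-07). The first 8 classes in the order of *Tfeb* overlapped with their neighbours, down to distal convoluted tubule-like cells at 14.4 to 22.0 CPM. The lowest medians were in both proximal classes, S1/S2-like cells with 8.22, 8.49, 7.99 and 5.76 CPM and S3-like cells with 6.60, 5.19, 5.39 and 2.50 CPM. Both ranges overlapped with those of mesangial and mural cell-like (3.20 to 16.1 CPM) and podocyte-like cells (4.82 to 13.8 CPM). The control libraries alone thus held 5.39 to 6.60 CPM in S3-like cells against 36.6 and 37.9 CPM in type A cells. The class test gave S3-like cells a log2 difference of -1.25 (SE 0.14, adjusted p = 1.29e-10), and the libraries of mice with the deletion entered that fit. The lower call in podocyte-like cells, a log2 difference of -0.87 (adjusted p = 0.00579), was lost without the aged control library (-0.69, adjusted p = 0.0729). The genes most like *Tfeb* were *Zfyve9* (r = 0.973), *Def6* (0.943), *Nfe2l2* (0.929), *Mon1b* (0.917) and *Mta3* (0.917). Among the members the pattern of *Tfeb* was closest to that of *Mitf* (r = 0.749 over the 13 classes), and *Mitf* and *Tfec* ran opposite to each other (r = -0.715).

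The make-up of the family thus differed between segments. In S3-like cells *Tfec* gave 66.9, 68.2, 59.8 and 67.8% of the UMIs of the 4 members, with exact 95% binomial intervals of 57.2 to 62.3% in aged control and 65.1 to 70.5% in aged KAP mice. *Tfe3* gave 11.8, 13.6, 16.6 and 15.7%, *Mitf* 9.07, 8.82, 10.3 and 9.89%, and *Tfeb* 12.3, 9.43, 13.3 and 6.51%. In the aged libraries the *Tfeb* share was 13.3% (11.6 to 15.1) in control and 6.51% (5.19 to 8.05) in KAP mice. These intervals did not overlap, but they cover only counting error in single libraries. Shares within a library are tied to each other, so a lower *Tfeb* share alone raises those of the other members. The family as a whole was counted at 53.8, 55.0, 40.5 and 38.5 CPM. In thick ascending limb-like cells the family summed to 111, 114, 119 and 109.8 CPM, and *Mitf* held 69.4 to 72.3% of it.

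**Figure D2:**
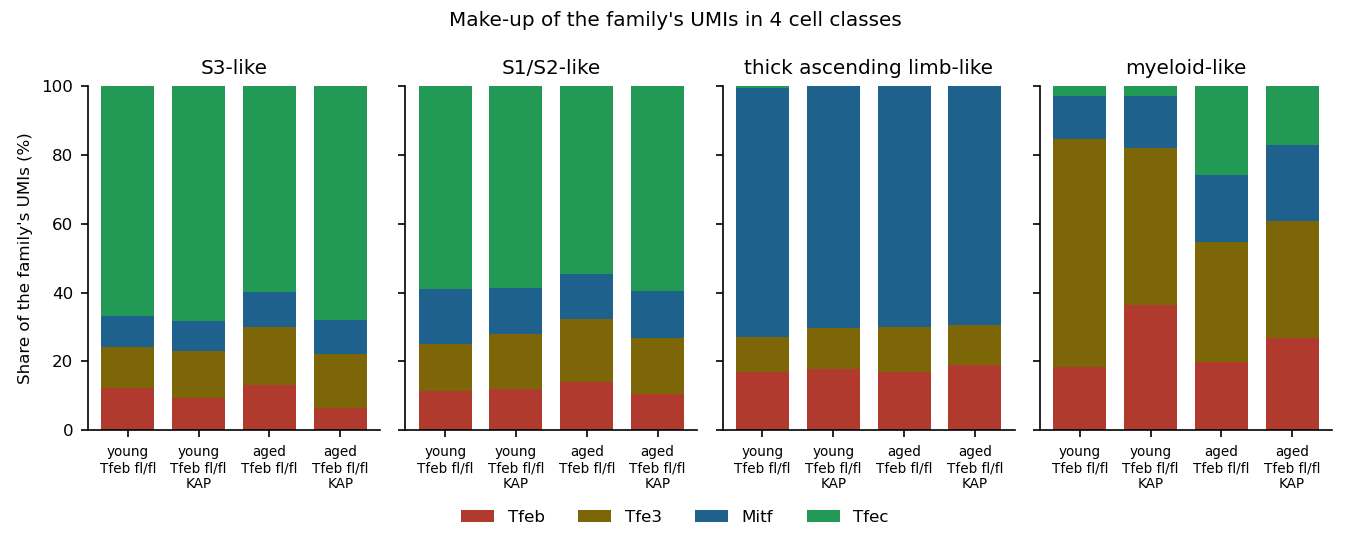
Share of the family's UMIs (vertical axis, percent) held by each member in S3-like, S1/S2-like, thick ascending limb-like and myeloid-like cells, with a stacked bar for each library. *Tfec* makes up 59.8 to 68.2% in S3-like cells and at most 0.477% in thick ascending limb-like cells, where *Mitf* makes up 69.4 to 72.3%.

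In the cells without a *Tfeb* UMI *Tfec* was again the most frequent relative. These cells made up 87.4, 90.9, 88.6 and 94.3% of S3-like cells, so most S3-like cells gave no *Tfeb* UMI in any library, floxed controls included. Of these cells 48.1, 46.1, 41.1 and 43.5% had a *Tfec* UMI, 10.3, 12.7, 14.7 and 13.3% a *Tfe3* UMI and 9.15, 8.80, 9.13 and 8.36% a *Mitf* UMI. At least 1 of the 3 relatives was found in 55.8, 54.2, 51.9 and 53.1% of them, and in the aged KAP library this was 641 of 1208 cells (exact 95% interval 50.2 to 55.9%). A cell without a UMI may still have the transcript. Over all S3-like cells thinned to 2000 UMIs, those with a *Tfeb* UMI included, the share with any relative was 10.4, 10.8, 7.55 and 7.88%.

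To see what the deletion left of *Tfeb*, the KAP libraries were set against those of control mice of the same age. In S3-like cells 238, 155, 197 and 79 *Tfeb* UMIs were counted. The aged KAP library was lower than its control by a log2 ratio of -1.10 (95% counting interval -1.50 to -0.72), and the young by -0.35 (-0.65 to -0.049). In S1/S2-like cells the log2 ratios were -0.47 (-0.81 to -0.14) in aged and 0.048 (-0.21 to 0.31) in young mice. In thick ascending limb-like cells, where *Kap* itself was near 0, they were 0.049 (-0.25 to 0.36) and 0.11 (-0.10 to 0.32). With cells thinned to 2000 UMIs only 7 UMIs against 12 remained in aged S3-like cells and the log2 ratio was -0.58 (-2.16 to 0.88), while the young ratio was 0.41 (-0.53 to 1.36). Intervals of this kind are narrow for well counted genes, and of all genes with a mean of at least 10 CPM in S3-like cells 25.2% lay wholly lower and 22.4% wholly higher in aged mice, and 23.3 and 28.4% in young mice.

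**Figure D3:**
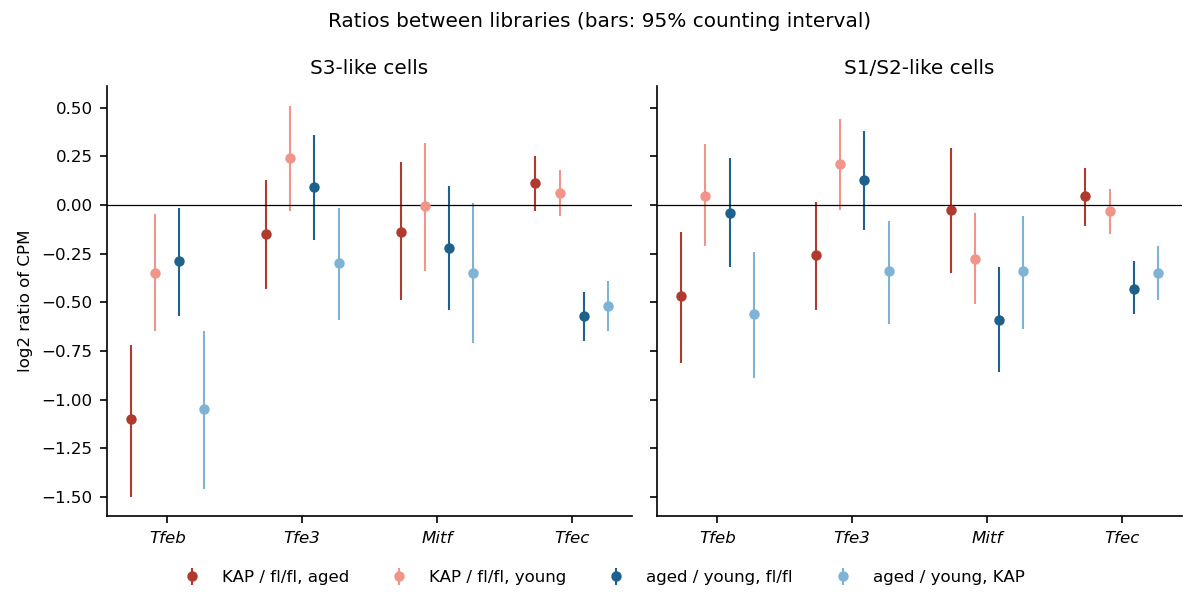
Log2 ratio of CPM (vertical axis) of each member between libraries in S3-like (left) and S1/S2-like cells (right), by genotype within each age and by age within each genotype, with bars for the 95% counting interval. In S3-like cells the lowest point is *Tfeb* in aged KAP against aged control mice at -1.10, and *Tfec* lies at -0.57 and -0.52 in the age ratios and at 0.11 and 0.060 in the genotype ratios.

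All 4 libraries were then fitted with age and genotype as terms (edgeR quasi-likelihood test), which leaves 1 residual degree of freedom. *Tfeb* in S3-like cells had a log2 difference of -0.70 (SE 0.23, edgeR adjusted p = 0.652), with both KAP libraries below the control of their age. The difference did not pass the threshold, nor under any of 8 alternative settings (adjusted p 0.386 to 0.837). The genotype test called 0.0388% of genes in S3-like and 0.00778% in S1/S2-like cells, that is 5 and 1 genes, with 917 and 959 at an unadjusted p under 0.05. Whether the genotype difference depended on age could not be tested with 1 library per condition.

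The ratio of *Tfeb* was uneven within the S3-like class. In its largest cluster, cluster 1, *Tfeb* was at 6.62, 5.12, 5.98 and 1.54 CPM (28 against 115 UMIs in aged mice, log2 ratio -1.95, -2.60 to -1.35). In cluster 2 it was at 5.14, 2.80, 2.94 and 0.257 CPM, where 2 UMIs in the aged KAP library stood against 33 (log2 ratio -3.51, -6.62 to -1.55). In cluster 11 it was at 9.78, 8.62, 8.33 and 9.54 CPM (45 against 39 UMIs, log2 ratio 0.20, -0.45 to 0.85), so that this cluster gave no sign of a lower level and its interval did not meet those of clusters 1 and 2. Cluster 11 was led by *Gm45792*, *Osgin1*, *Slc25a25* and *Angptl4* and had *Kap* at 39347, 40931, 34975 and 46351 CPM, against 56721 to 77019.8 in cluster 1 and 72699 to 90204 in cluster 2. Cluster 23 had *Kap* at 18597 to 26402 CPM, below cluster 11, and a log2 ratio of -0.75 (-2.88 to 1.04, 4 against 10 UMIs). This interval includes the ratios of both cluster 11 and cluster 1. Whether the ratio followed *Kap* was not tested. With clusters 1 and 2 alone, a choice made after these values were seen, the log2 ratio was -2.07 (-2.69 to -1.50) in aged and -0.48 (-0.83 to -0.13) in young mice. Of the S1/S2-like clusters, clusters 7 and 10 were lower in the aged KAP library, by log2 ratios of -1.22 (-2.27 to -0.22) and -0.77 (-1.53 to -0.046). *Kap* was at 4583 and 1590.3 CPM there. Clusters 6, 12 and 16 had log2 ratios of -0.85 (-2.26 to 0.42), -0.51 (-1.27 to 0.24) and -0.100 (-0.69 to 0.48) in aged mice. These intervals included 0, and *Kap* was at 43859, 2731 and 34911 CPM in the aged KAP library.

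**Figure D4:**
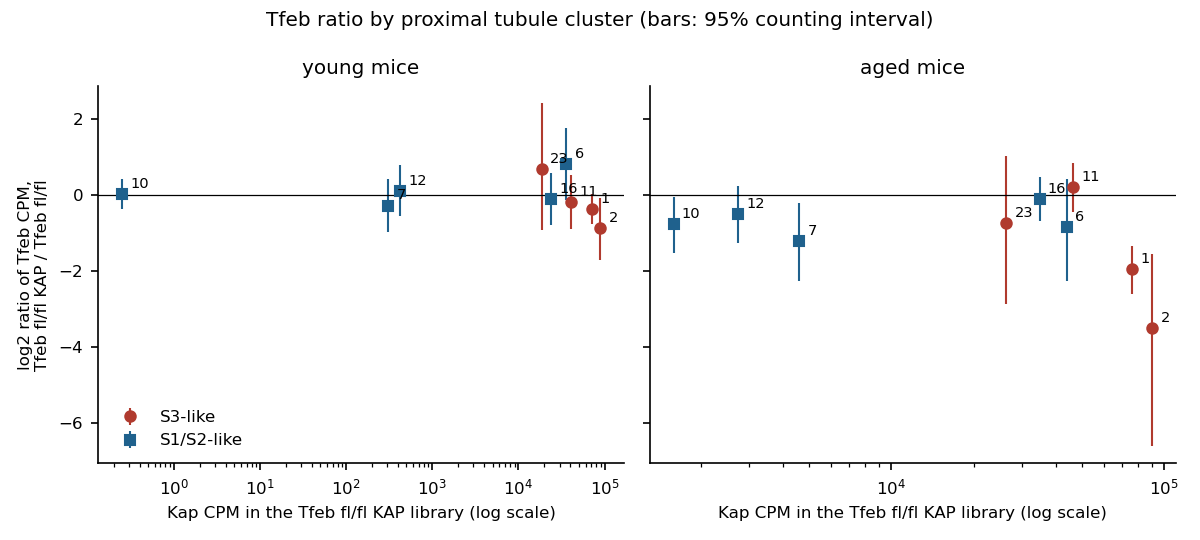
Log2 ratio of *Tfeb* CPM between KAP and control libraries (vertical axis) in each proximal tubule cluster but the smallest against the *Kap* CPM of that cluster in the KAP library (horizontal axis, log scale), for young (left) and aged mice (right), with bars for the 95% counting interval and cluster numbers beside the points. In aged mice clusters 1 and 2 lie at -1.95 and -3.51 and cluster 11 at 0.20.

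In neither age did a relative have an interval wholly above 0 in S3-like cells. *Tfec* in S3-like cells had genotype log2 ratios of 0.11 (-0.031 to 0.25) in aged and 0.060 (-0.057 to 0.18) in young mice, and an edgeR log2 difference of 0.085 (SE 0.086, adjusted p = 0.865). *Tfe3*, at 6.32, 7.46, 6.73 and 6.06 CPM, had ratios of -0.15 (-0.43 to 0.13) and 0.24 (-0.033 to 0.51). *Mitf* had -0.14 (-0.49 to 0.22) and -0.0082 (-0.34 to 0.32). All 6 intervals included 0 and reached 0.51 at most. In clusters 1 and 2 they included 0 as well and reached 0.59 at most, for *Tfe3* in young mice, and *Tfec* had 0.025 (-0.14 to 0.19) and 0.052 (-0.083 to 0.19). The intervals cover counting error only and set no bound on a difference between the genotypes. Protein and nuclear localization were not measured in these libraries.

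Between young and aged mice *Tfec* was lower with age in S3-like cells of both genotypes, and less uniformly so in S1/S2-like cells. In S3-like cells 1298 and 1121 UMIs in the young libraries stood against 886 and 823 in the aged, with log2 ratios of -0.57 (-0.70 to -0.45) in control and -0.52 (-0.65 to -0.39) in KAP mice. In S1/S2-like cells they were -0.43 (-0.56 to -0.29) and -0.35 (-0.49 to -0.21), but -0.15 and 0.00098 with clusters drawn at Leiden resolution 0.5. Both aged libraries lay below both young libraries in either class. The ratios of single clusters all rest on the same libraries, and the share of all genes with age intervals wholly below 0 was not counted. The S3-like clusters 1, 2, 11 and 23 each had both age intervals wholly below 0. Of the S1/S2-like clusters, 12 and 16 did so too and cluster 6 in KAP mice (-0.99, against -0.44 with an interval to 0.0055 in control mice), while cluster 7 had ratios of -0.22 (-0.69 to 0.22) and -0.036 (-0.47 to 0.39) and cluster 10 of -0.18 (-0.43 to 0.076) and -0.12 (-0.39 to 0.16). The make-up of the S1/S2-like class also differed with age, as cluster 10 held 490, 441, 180 and 132 of its cells, and the part of this in the class ratio was not tested. The age test gave S1/S2-like cells a log2 difference of -0.44 (SE 0.088, edgeR adjusted p = 0.0236) and S3-like cells -0.56 (SE 0.086, adjusted p = 0.0592). The latter narrowly missed the threshold of 0.05 and was not called. Under 8 alternatives the adjusted p ran from 5.06e-04 to 0.144 in S1/S2-like cells, under the threshold in 6, and from 0.00394 to 0.072 in S3-like cells, under it in 5. The age test called 15.8% of genes in S1/S2-like and 1.41% in S3-like cells.

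The other members followed age less uniformly. *Tfeb* in S3-like cells had log2 ratios with age of -1.05 (-1.46 to -0.65) in KAP mice and -0.29 (-0.57 to -0.014) in control mice, and the age test did not call it (edgeR adjusted p = 0.236). *Mitf* in S1/S2-like cells was at 11.3, 9.36, 7.53 and 7.38 CPM, with a log2 difference of -0.52 (SE 0.14, adjusted p = 0.0502). Under 8 alternatives the adjusted p ran from 0.0045 to 0.924, under the threshold in 3, and the ratio with age in KAP mice was above 0 under 4 alternatives, at 0.028 to 0.34. In thick ascending limb-like cells its age ratios were 0.063 (-0.069 to 0.19) and -0.065 (-0.19 to 0.063). *Tfe3* in S3-like cells had an adjusted p of 0.763.

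Myeloid-like cells held *Tfec* in the aged libraries. They were few, 115, 81, 147 and 129 cells with a median of 4792 to 7809 UMIs, and gave 2, 1, 65 and 21 *Tfec* UMIs, or 3.20, 2.22, 46.9 and 21.7 CPM. In aged control mice this was above the 24.2 and 31.4 CPM of both proximal classes. The log2 ratios with age were 3.87 (1.96 to 6.95) in control and 3.29 (0.66 to 8.66) in KAP mice, and aged KAP mice were below aged control mice by -1.11 (-1.89 to -0.38). Of the 65 UMIs, 64 were in cluster 26, whose leading genes included the complement genes *C1qa* and *C1qb*, and there *Tfec* was at 0, 4.18, 75.1 and 31.5 CPM. *Kap* in myeloid-like cells was at 465, 2.22, 333 and 336 CPM. At the proximal ratio, which sets no bound after the background correction, this would bring 0.394, 0.00222, 0.218 and 0.182 CPM of *Tfec*. *Mitf* in the same cells was at 14.4, 11.1, 35.3 and 27.9 CPM and *Tfe3* at 75.2, 33.2, 63.4 and 43.5 CPM. The share of the 2 myeloid-like clusters differed between libraries, with 63, 39, 73 and 47 cells in cluster 26 and 52, 42, 74 and 82 in cluster 24.

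Whether genes that the family is known to control moved with *Tfeb* was followed in S3-like cells with lists of lysosomal hydrolases, lysosomal membrane proteins, subunits of the vacuolar proton pump (v-ATPase), autophagy genes, and a list of feedback and metabolic targets. No gene of these lists was called in the genotype test, in either proximal class. That test called 0.0388% of all genes in S3-like and 0.00778% in S1/S2-like cells. In the aged libraries 16 of 21 measured hydrolase genes had a log2 ratio below 0 (median -0.14), with 14 intervals wholly below 0 and 3 wholly above. Over all 6648 genes the median was -0.0061 and 51.6% were below 0, 25.2% with the whole interval. In the young libraries 12 of 21 were below 0 (median -0.021). *Ctsb*, which encodes cathepsin B, had 225, 229, 246 and 189.6 CPM (aged log2 ratio -0.37, -0.42 to -0.33), and *Gaa*, the acid glucosidase that degrades glycogen, 20.7, 20.4, 27.7 and 21.9 CPM (-0.34, -0.48 to -0.20). At the other end were the galactosidase gene *Glb1* (0.20, 0.12 to 0.29) and the glucuronidase gene *Gusb* (0.31, 0.13 to 0.50), and both were higher in young KAP mice too, by 0.25 and 0.50.

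Of 12 lysosomal membrane genes only 5 reached the mean of 10 CPM asked of a measured gene. The genotype test, over both ages, took in all 12, and its log2 differences ran from -0.18 to 0.77. Of the 5 measured genes 4 were below 0 in aged mice (median -0.12), with 3 intervals wholly below 0 and none wholly above. In young mice 4 of 5 were below 0 too (median -0.025), with 2 intervals wholly below 0 and 1 wholly above. Over all genes 51.6% were below 0 in aged and 47.6% in young mice. The aged ratios ran from *Lamp1* (774, 769, 817 and 681 CPM, log2 ratio -0.26, -0.29 to -0.24) and the tetraspanin gene *Cd63* (-0.15) to *Laptm4a* (-0.021) and *Ostm1* (0.19). Of 14 v-ATPase genes 8 were below 0 in aged mice (median -0.023), with *Atp6v0c* (-0.16) and *Atp6v1a* (-0.14) lowest and *Atp6v0e* (0.14) and *Atp6v0d1* (0.18) highest. In young mice 7 of 14 were below 0 (median 0.0066). Of 15 autophagy genes 6 were below 0 in aged mice (median 0.019), with *Gabarapl1* (-0.26) and *Atg9a* (-0.20) lowest and *Sqstm1* (0.16), the gene for the autophagy receptor p62, and *Nrbf2* (0.40) highest. In young mice 4 of 14 were below 0 (median 0.069), with 7 intervals wholly above 0 and none wholly below. Of all genes 28.4% lay wholly above and 23.3% wholly below 0 in young mice.

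The feedback and metabolic list stood lowest, with 7 of 8 measured genes below 0 in aged mice, a median of -0.24 and 6 intervals wholly below 0. In young mice 5 of 7 were below 0, with a median of -0.076. Over all genes 51.6% were below 0 in aged mice, 25.2% with the whole interval, and 47.6% were below 0 in young mice. The lists were chosen with earlier results of these data known, so this order is a description. *Rragd*, a Rag GTPase that tethers mTORC1 to the lysosome, had 6.38, 8.20, 16.8 and 7.48 CPM. The aged control library stood above the other 3, and all 4 ratios share these libraries, so that the genotype log2 ratio was -1.17 (-1.39 to -0.95) in aged and 0.36 (0.097 to 0.63) in young mice, and the age ratio 1.40 (1.18 to 1.62) in control and -0.13 (-0.40 to 0.13) in KAP mice. Another Rag GTPase gene, *Rragc*, was at 26.9, 25.9, 27.9 and 25.6 CPM with a genotype ratio of -0.13 (-0.26 to 0.0059) in aged mice. *Ppara*, the nuclear receptor for fatty acid oxidation, had 33.4, 41.7, 61.0 and 49.6 CPM and genotype ratios of -0.30 (-0.39 to -0.21) in aged and 0.32 (0.20 to 0.43) in young mice.

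*Ppargc1a*, a coactivator of mitochondrial biogenesis, had 53.0, 46.4, 53.7 and 40.6 CPM, with ratios of -0.40 (-0.51 to -0.30) in aged and -0.19 (-0.29 to -0.091) in young mice, and the genotype test did not call it (edgeR adjusted p = 0.652). Of the folliculin complex, which acts on the Rag GTPases, *Fnip2* had a ratio of -0.27 (-0.37 to -0.16) and *Fnip1* of -0.15 (-0.25 to -0.043) in aged mice, and *Flcn* itself of 0.10 (-0.12 to 0.32). *Hif1a* had -0.22 (-0.34 to -0.10). *Gpnmb*, a lysosomal glycoprotein, had no UMI in S3-like cells of any library, and none of the 6 melanocyte targets of MITF reached the mean of 10 CPM asked of a measured gene. In S1/S2-like cells all 8 measured genes of the list were below 0 in aged mice (median -0.12), against 53.7% of all 7064 genes measured in that class (median -0.014). Of these 8 genes 3 had an interval wholly below 0 and 5 an interval that included 0. The share of all genes with an interval wholly below 0 is not given for S1/S2-like cells, so this count is a description.

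**Figure D5:**
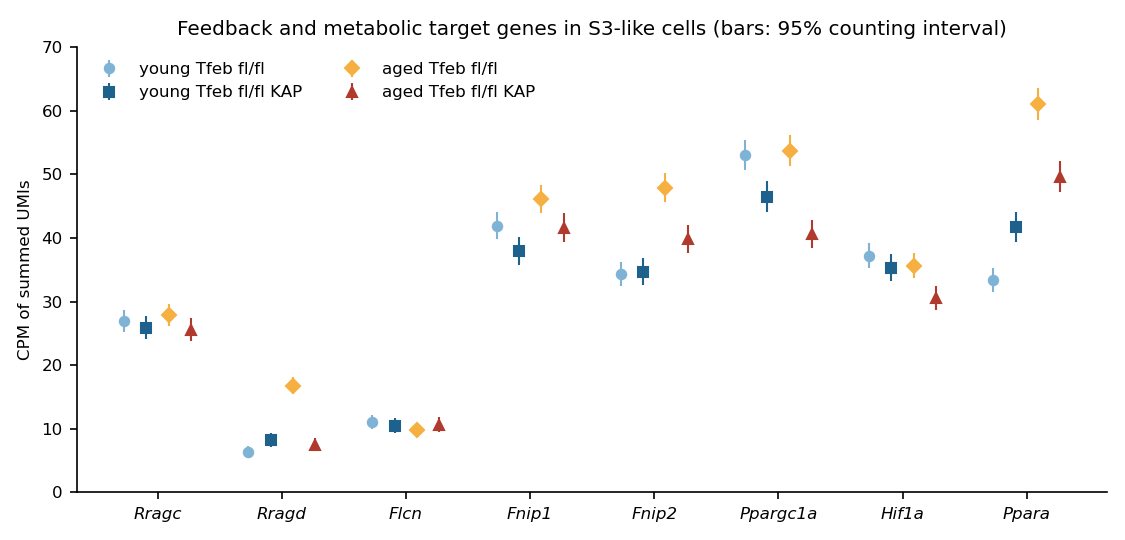
CPM (vertical axis) of the measured feedback and metabolic target genes in S3-like cells, with a point for each library and bars for the 95% counting interval. *Rragd* stands at 16.8 CPM in aged control mice and at 6.38 to 8.20 CPM in the other 3 libraries, and *Ppara* at 61.0 CPM against 33.4 to 49.6.

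With age, 16 genes of the lists were called in S1/S2-like cells by edgeR, 8 rising and 8 falling, where 15.8% of all genes were called. They were 5 of 25 hydrolase, 1 of 12 membrane, 2 of 15 v-ATPase, 3 of 17 autophagy and 5 of 8 feedback genes tested. Of the feedback list *Fnip2* (log2 difference 1.05, SE 0.093), *Ppara* (0.94, SE 0.088) and *Fnip1* (0.44, SE 0.083) rose and *Ppargc1a* (-0.40, SE 0.083) and *Hif1a* (-0.37, SE 0.084) fell. Of the autophagy list *Gabarapl1* (0.81), *Wipi1* (0.64) and *Sqstm1* (0.33) rose. Of the hydrolases 1 rose and 4 fell, among them *Hexa* (-0.84). In S3-like cells no gene of the lists was called with age by edgeR, and 11 had an unadjusted p under 0.05. They were 3 of 25 hydrolase, 3 of 15 v-ATPase, 3 of 17 autophagy and 2 of 8 feedback genes, and none of 12 membrane genes. Of all 12871 genes tested there, 2304 had an unadjusted p under 0.05.

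The extended element TCACGTGA was looked for on both strands in RefSeq promoter windows of 250 bases before to 50 after a start site. It was found for 304 of 27025 genes (1.12%), for 3 of 19 hydrolase genes with a window (15.8%), 3 of 11 membrane genes (27.3%), 3 of 11 v-ATPase genes (27.3%), 1 of 13 autophagy genes (7.69%), none of 9 feedback genes and none of the 4 members. The shorter CACGTG, contained in it, was found for 8.09% of all genes, 11 of 19 hydrolase genes (57.9%) and none of the members. It was also found for 4 of 11 membrane genes (36.4%), 4 of 11 v-ATPase genes (36.4%), 2 of 13 autophagy genes (15.4%) and 3 of 9 feedback genes (33.3%). The element with its flanking bases is shown from GRCm38.p6 for the 2 genes named above in which it lies upstream of the start site, *Atp6v1a* at chr16:44139324-44139451 and *Nrbf2* at chr10:67285423-67285531, both on the minus strand. The capitals mark the element, which begins 132 bases before the start site in *Atp6v1a* and 209 in *Nrbf2*. The S3-like genotype ratios in aged mice of these genes, -0.14 and 0.40, had opposite signs.
Atp6v1a: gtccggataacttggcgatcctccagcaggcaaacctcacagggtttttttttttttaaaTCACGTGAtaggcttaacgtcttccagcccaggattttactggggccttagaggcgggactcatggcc
Nrbf2: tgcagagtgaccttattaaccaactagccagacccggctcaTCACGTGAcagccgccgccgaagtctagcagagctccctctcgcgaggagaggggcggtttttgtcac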

How the data were processed

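Renal cortex pooled from 2 or 3 mice per condition had been sequenced as 4 droplet libraries, 1 per condition. The deposited matrices hold UMI counts per gene and cell barcode, which the authors made with Cell Ranger 6.0.0 on the mm10 genome and corrected for background with SoupX before use in Seurat 4.4.0, per the submitters' notes and the study's methods. The values are whole numbers and 2.90, 12.5, 9.41 and 12.9% of the listed entries are explicit zeros. The correction lowers counts of messages found in free RNA, by amounts that the methods do not state. The libraries hold 194747936, 155327520, 125729484 and 135792884 UMIs.

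Cells with at least 1000 genes and at most 50% mitochondrial counts were kept (32407 of 48085 barcodes), and 971, 574, 287 and 384 doublets were removed with Scrublet at the expected rate. Cells were clustered without the 4 members (2000 variable genes, 30 principal components, integration of libraries, Leiden resolution 1.0; scanpy 1.11.5, leidenalg 0.10.2) and clusters were named after marker lists. The way of naming was revised once clusters had been seen, to part the endothelial classes and the proximal segments. The members, lists and markers were chosen with earlier results of these data known.

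UMIs were summed per class and library. Ratios of CPM carry exact conditional binomial intervals and levels exact Poisson intervals, all at 95%. UMI intervals and the floor of 3 counts cover counting error only. Tests were edgeR 4.0.16 quasi-likelihood tests (R 4.3.3, TMM, filterByExpr, Benjamini-Hochberg, threshold 0.05), with DESeq2 1.42.0 as an alternative. They were also tested on simulated data, and the outcome is not given here. The genotype and age tests have 1 residual degree of freedom. List genes counted as measured had a mean of at least 10 CPM over the 2 libraries compared, and genes compared in pattern at least 500 UMIs. Named are the members, the 5 genes most like each (1 of them is not reported here), and in each list the 2 genes with the lowest and the 2 with the highest aged genotype ratio in S3-like cells, and all genes of the feedback list. *Wipi1* and *Hexa*, called with age, were named after their values were seen. To compare shares of cells, cells were thinned to 2000 UMIs, which left out 63, 36, 22 and 47 shallower cells. Alternatives were other cell filters, resolutions, scalings and tests, and leaving out each library. Sequences came from RefSeq tables of GRCm38.p6.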

Additional observations from a re-analysis of the deposited data

Results flagged for a closer look

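Some target genes had ratios of opposite sign, each with an interval wholly on its side of 0, in young and aged mice or in the 2 genotypes. The differences between these ratios were not tested, since each rests on 4 single libraries. Only the members, the feedback list and the list genes with the lowest and highest aged genotype ratios in S3-like cells were searched. *Ctsb*, *Lamp1* and *Atg9a* were thus picked by values that their S3-like ratios reuse. Of all genes measured in S3-like cells, 25.2% had a genotype interval wholly lower and 22.4% wholly higher in aged mice. In young mice these shares were 23.3 and 28.4%. The share of all genes with such opposite ratios was not counted. The genotype log2 ratio in S3-like cells was -1.17 in aged and 0.36 in young mice for *Rragd*, -0.30 and 0.32 for *Ppara* and -0.20 and 0.27 for *Atg9a*, a membrane protein of autophagy. The age ratio in S3-like cells was 0.13 in control and -0.27 in KAP mice for *Ctsb* and 0.079 and -0.18 for *Lamp1*. In S1/S2-like cells the genotype ratio was -0.53 in aged and 0.19 in young mice for *Rragd* (24.8, 28.3, 25.3 and 17.5 CPM), -0.22 and 0.16 for *Ctsb*, -0.17 and 0.10 for *Lamp1* and 0.14 and -0.050 for *Atp6v0e*. For *Rragd* and *Ppara* in S3-like cells the aged control library was the highest of the 4.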

How the results depend on the processing

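No paired analysis was possible because each condition has a single library. The genotype and age tests could not be run without a library, as no residual degree of freedom is left, and the libraries that decide a class call are named in the report. With cells thinned to 2000 UMIs, the *Tfeb* log2 ratio in S3-like cells was -0.58 in aged mice (7 against 12 UMIs) and 0.41 in young mice, so depth limits both, and in clusters 1 and 2 alone, chosen after seeing the data, the aged ratio was -2.07. The *Tfec* age ratio in control S3-like cells was -0.43 both as a mean of per-cell CPM and with at most 20% mitochondrial counts. The latter filter kept 15827 of the 30191 cells, and the *Tfec* share was then 70.5% (young KAP) and 63.2% (aged control). Under it 16 mean levels of a member in a class moved by at least their SD over libraries and 32 did not. Mean *Tfec* went from 36.8 to 59.3 CPM in S1/S2-like and from 30.9 to 38.9 CPM in S3-like cells. Mean *Mitf* in thick ascending limb-like cells went from 80.0 to 94.4 CPM. The *Tfec* age ratio in S1/S2-like KAP cells was 0.00098 at Leiden resolution 0.5. That of *Mitf* was 0.34 as a per-cell mean, 0.074 thinned, 0.12 at resolution 0.5 and 0.028 at 20% mitochondrial counts.

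The *Tfec* age difference in S3-like cells passed the threshold at -0.58 (resolution 0.5), -0.56 (doublets kept, DESeq2, or no count filter) and -0.54 (no integration). In S1/S2-like cells it missed it at -0.40 (20% mitochondrial counts) and -0.23 (resolution 0.5). *Tfe3*, near 0 in these tests, changed sign to 0.014 (age, S3-like, resolution 0.5) and -0.16 (genotype, S3-like, 20% mitochondrial counts), and by genotype in S1/S2-like cells to -0.071 (20% mitochondrial counts), -0.043 and -0.037 (resolutions 0.5 and 2.0), -0.052 (doublets kept), -0.016 (no TMM) and -0.0035 (no count filter). *Mitf* in mesangial and mural cell-like cells turned to 0.063 with doublets kept. Of the class test values under all alternatives, 435 kept direction and side of the threshold, 18 lost their call and this 1 reversed.

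Genes called by genotype in S3-like cells numbered 5, and 32 (20% mitochondrial counts), 3 (resolution 0.5), 88 (no integration), 104 (DESeq2) and 58 (no count filter). In S1/S2-like cells the 1 gene became 46, 56, 13, 67 and 311 in that order, 2 at resolution 2.0, 10 with doublets kept and 3 without TMM. By age, the 181 genes in S3-like cells became 387, 415, 794, 635 and 492, and the 2034 in S1/S2-like cells 1304 (20% mitochondrial counts) and 3362 (no count filter). The cause of these changes was not tested.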

Other observations

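Clusters left without a name also held members of the family. Cluster 17, 850 cells with markers of both types of intercalated cell, had *Mitf* at 64.4, 58.6, 66.9 and 71.6 CPM and *Tfeb* at 30.0, 33.0, 40.9 and 38.7 CPM. Cluster 20, 401 cells led by the matrix genes *Ccn2*, *Ptn* and *Adamts5*, had *Tfec* at 16.4, 9.55, 23.9 and 26.6 CPM, from 6, 7, 15 and 30 UMIs, and *Tfe3* at 32.8, 50.5, 30.3 and 47.1 CPM.

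Within the proximal tubule *Tfec* itself was uneven. Cluster 12, 1177 S1/S2-like cells led by *Snhg11*, *Slc5a12* and *Rcan1*, had 87.9, 87.4, 70.8 and 69.6 CPM and cluster 11 had 57.7, 64.1, 46.1 and 52.6 CPM, against 28.9, 32.4, 18.9 and 19.0 CPM in cluster 2. In each of these clusters both aged libraries lay below both young libraries.

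The melanocyte genes that MITF is best known to control were nearly uncounted in the 30191 cells. *Tyrp1* had no UMI in any library, *Mlana* had 8, 10, 2 and 6 UMIs, and *Trpm1*, the most frequent of the 6, had 145, 56, 52 and 65 UMIs in 249 cells.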
